A study of Homo sapiens with 6 samples.

Results

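The genes of the Fanconi anaemia pathway and of homologous recombination were followed in cells depleted of ARMC5, a BTB protein that serves as a substrate adaptor of the CUL3 ubiquitin ligase. The 35 members were given by name, among 35810 genes with at least 1 matched transcript, and all 35 passed the filter on low counts that left 13737 genes. The cells were SPT5-AID cells, which derive from the colorectal adenocarcinoma line DLD-1 and express the elongation factor SPT5 fused to a degron that auxin induces. One group was infected with a lentiviral GIPZ shRNA against ARMC5 (shARMC5) and the other with a nontargeting shRNA (shNT), with 3 libraries in each group. All 6 libraries share the SPT5-AID background, and their labels name no auxin. The methods list more than 1 ARMC5 shRNA construct and do not state which one these libraries carry. They call replicates biological, and the labels do not say what a replicate was, so that P values here measure the spread between these libraries.

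The Fanconi pathway acts on DNA interstrand crosslinks that block replication forks. A core complex with the ubiquitin ligase FANCL and the conjugating enzyme UBE2T attaches ubiquitin to FANCD2 and FANCI, and the scaffold SLX4 brings nucleases that cut beside the crosslink. The resulting double-strand break is repaired by homologous recombination, in which MRE11, RAD50 and NBN resect the ends and BRCA1, PALB2 and BRCA2 act in the strand invasion that follows. Several of these genes, among them BRCA1, BRCA2, PALB2, BRIP1 and RAD51C, are known for inherited risk of breast or ovarian cancer.

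Libraries held between 26201112 and 40866478 estimated reads, and single members were covered by 40 to 8860 reads. ARMC5 (chromosome 16, 31458080 to 31467166) measured 10.8, 12.0 and 12.9 CPM in the shARMC5 libraries and 23.0, 25.9 and 26.7 CPM in the shNT libraries, where CPM is reads scaled to a common library total with TMM factors. The groups did not overlap, and the log2 fold change was -1.09 (SE 0.08, adjusted P = 5.32e-07 from edgeR's quasi-likelihood test). The epithelial markers CDX2 and EPCAM were present in every library, at means of 130.0 and 941 CPM in shNT cells, whereas the 7 markers of other cell types had means between 0 and 0.335 CPM, with PTPRC and CD3E at no more than 1 read in any library. Of the 7 epithelial markers, 4 were called, against 7.75% of all tested genes: KRT8, KRT18 and KRT19, which rose, and VIL1, which fell by 1.30 on the log2 scale. Fewer cells and less RNA per cell cannot be told apart in these bulk libraries.

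Of the 35 members, 3 were differentially expressed at an adjusted P under 0.1 (8.57%), where 7.75% of all tested genes were. FANCD2 rose, and FANCB and BRCA1 fell, against 4.44% of all tested genes called higher and 3.3% called lower. The balance over all genes depended on scaling: 610 were called higher and 454 lower with TMM factors, but 458 higher and 495 lower with library size only. The same 3 members were called with either scaling. The calls for FANCB and FANCD2 were lost once transcript rows without a gene match were counted with them, which left BRCA1 as the 1 member called (2.86%, where 7.87% of genes were called in that fit). The median log2 fold change of the members was -0.021, beside -0.001 over all genes tested. Of the 32 members not called, 28 had a 95% interval of the log2 fold change that lay within 0.25 of 0.

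**Figure D1:**
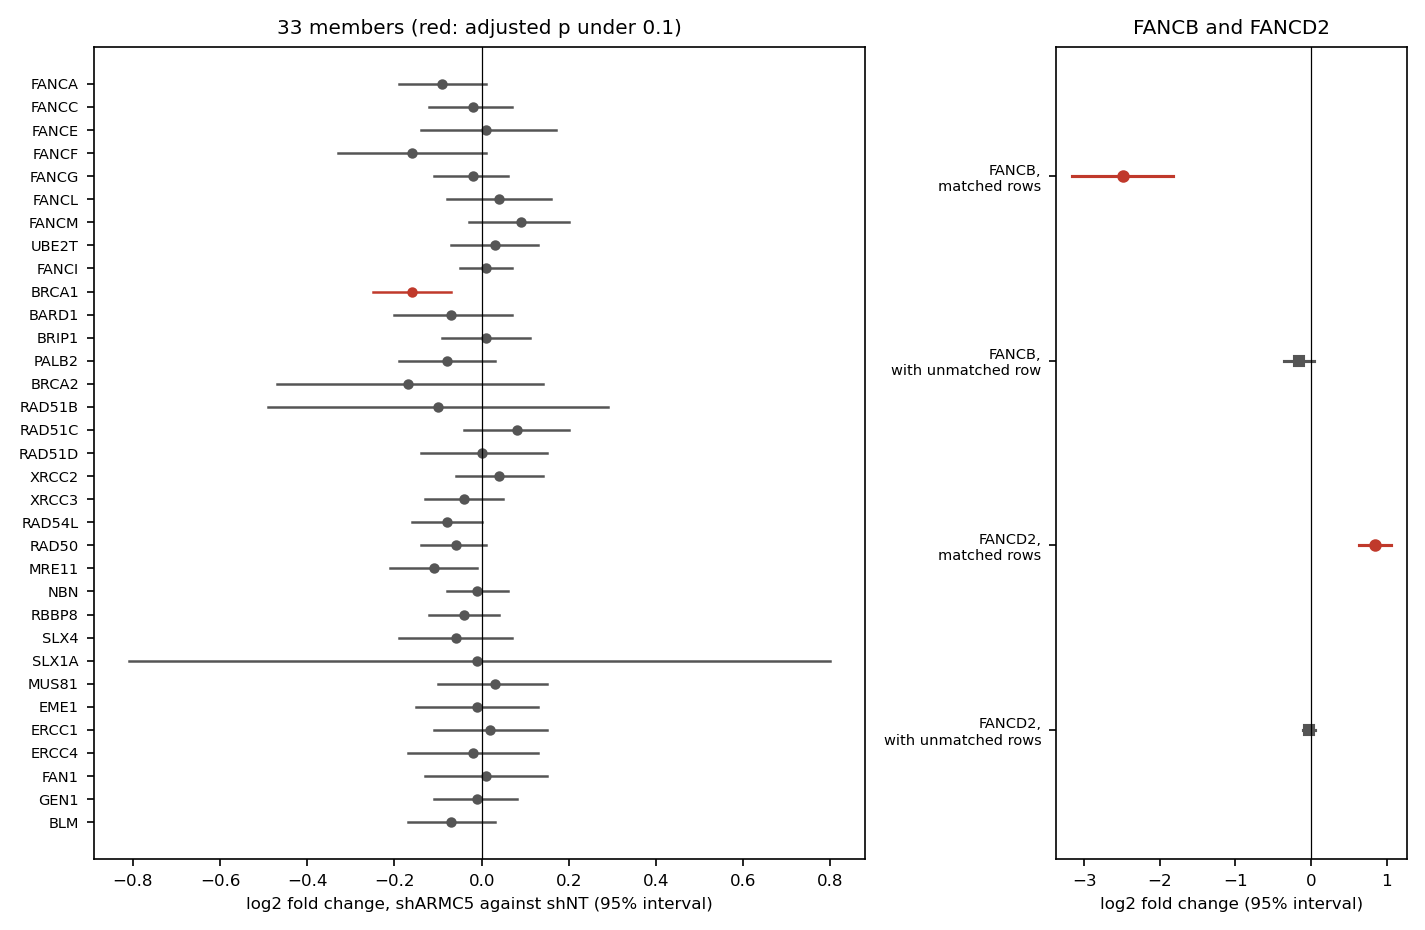
log2 fold change of each member, shARMC5 against shNT, with its 95% interval from edgeR's test (n = 3 libraries each). The left panel holds 33 members, of which BRCA1 (red) was called, and the right panel shows FANCB and FANCD2 from matched transcript rows (circles) and with the unmatched rows added (squares), where both intervals include 0.

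FANCB encodes a core complex subunit that holds FANCL and FAAP100. The gene (ENSG00000181544) lies on the minus strand of chromosome X. Its matched rows held 437, 437 and 378 reads in the shNT libraries and 40, 120 and 69 reads in the shARMC5 libraries. This corresponds to 13.4 ± 0.0678 CPM (SD, n = 3) in shNT and 2.37 ± 0.919 CPM (SD, n = 3) in shARMC5 cells. The groups were far apart, and the log2 fold change was -2.49 (SE 0.27, adjusted P = 0.0058 from edgeR's test), the most negative of the 35 members.

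The reads behind this difference sat on 1 transcript. ENST00000650831, the MANE Select transcript of FANCB, is 3017 bases long and runs from 14843405 to 14873069. It held 352, 341 and 303 reads in the shNT libraries and 0 reads in every shARMC5 library. The row directly after the FANCB rows, ENST00000398334, is 3008 bases long, 9 bases shorter, and has no match in GENCODE 44. That row held 376, 340 and 199 reads in the shARMC5 libraries and 0 in every shNT library. The pair therefore exchanged places between the groups, and the sum of both rows was 352, 341 and 303 reads in shNT and 376, 340 and 199 reads in shARMC5 libraries. The other FANCB transcripts with at least 10 reads overlapped between groups: ENST00000643728 held 27 to 83 reads and ENST00000324138 held 8 to 48 reads.

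The unmatched row was assigned to FANCB by its place in the files alone, and its sequence was not compared with the FANCB transcripts. With that row counted as FANCB, the gene measured 13.4, 13.5 and 13.5 CPM in shNT cells and 13.7, 11.7 and 10.6 CPM in shARMC5 cells. The groups overlapped through shARMC5 replicate 1, which was the highest of the 6 libraries. The log2 fold change was -0.16 with that row alone added (adjusted P = 0.381 from edgeR's test). It was also -0.16 with every unmatched row added to the gene before (95% interval -0.36 to 0.04, adjusted P = 0.389 from edgeR's test). The matched rows carried all of these reads in each shNT library and 9.64, 26.1 and 25.6% in the shARMC5 libraries. For that share, P was 0.1 in a two-sided exact permutation test, which cannot go lower with groups of 3. The complete split of the paired rows between the groups fixes that outcome, so this P adds no support beyond the read counts.

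Fitted as transcripts, 51892 rows were tested and 4 of them, 0.00771%, were called. Of the 207 tested transcripts of members, ENST00000650831 was the only one called (adjusted P = 0.0974 from edgeR's test), and the unmatched row gave an adjusted P of 0.127. The call of ENST00000650831 was lost on leaving out any 1 of the 6 libraries, and no adjusted P of a member transcript was under 0.05. Rows at 0 in every library of one group and at 50 or more reads in each library of the other numbered 55 among 26707 rows that reach 50 reads in every library of a group. Members supplied 3 of their 94 such rows: the FANCB transcript, ENST00000421731 of FANCD2 and ENST00000644379 of BRCA1.

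**Figure D2:**
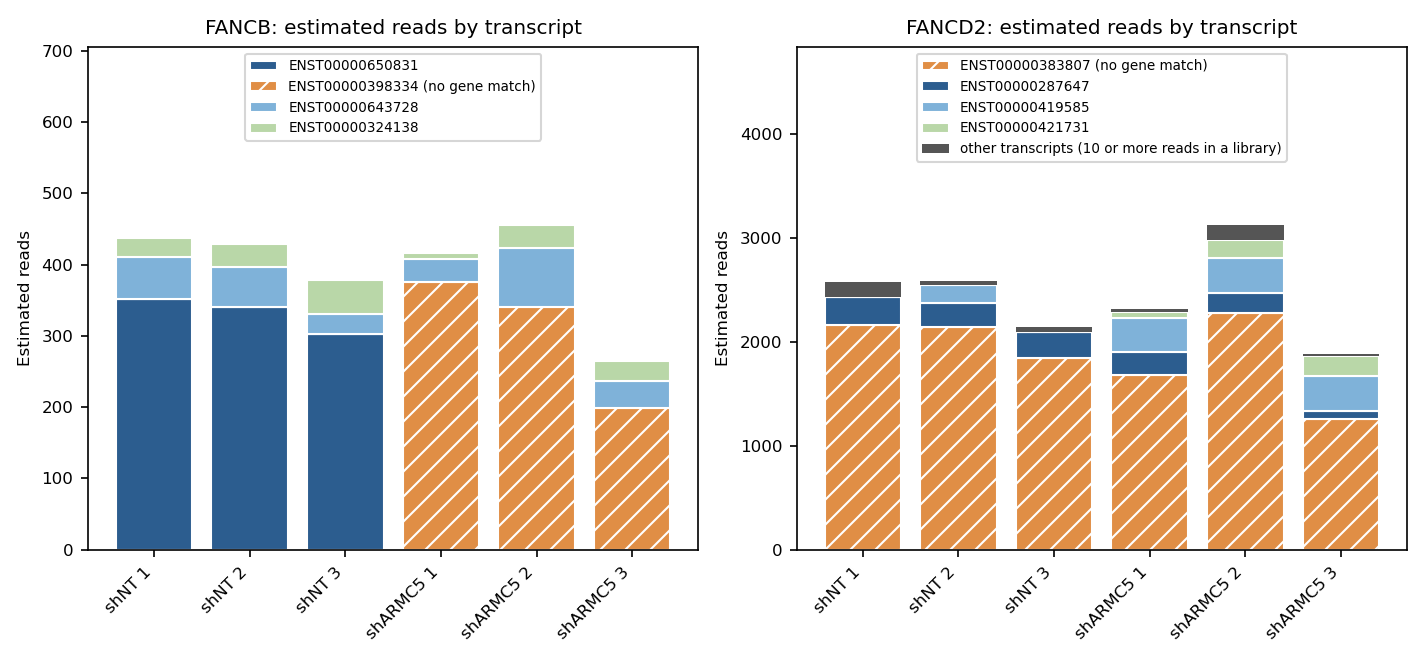
Estimated reads on the transcripts of FANCB (left) and FANCD2 (right) with at least 10 reads in a library, stacked per library. Hatched orange marks the row with no gene match: for FANCB it holds 199 to 376 reads in shARMC5 and 0 in shNT libraries, and for FANCD2 it holds 1260 to 2279 reads in all 6.

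FANCD2 is the partner of FANCI whose ubiquitination marks the activated pathway. It is on the plus strand of chromosome 3 (ENSG00000144554). The matched rows measured 12.6, 14.0 and 10.6 CPM in shNT and 21.1, 21.5 and 24.7 CPM in shARMC5 cells. These groups did not overlap, and the log2 fold change was 0.85 (SE 0.10, adjusted P = 0.000448 from edgeR's test), the highest of the members. With an offset for transcript length the log2 fold change was 0.15 in edgeR (adjusted P = 0.935) and 0.13 in DESeq2 (adjusted P = 0.963), and FANCD2 was not called. On the TPM scale, which divides by transcript length, the same rows did not separate, with 11.1 ± 5.76 in shNT and 11.9 ± 5.48 in shARMC5 cells (SD, n = 3).

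Most reads of the block of FANCD2 rows were on a row that the annotation does not match. ENST00000383807, of 5102 bases, is placed with FANCD2 by its position among these rows alone, since its sequence was not compared. It held 2164, 2136 and 1841 reads in shNT and 1676, 2279 and 1260 reads in shARMC5 libraries. This was 82.3 to 86.1% of the reads of the FANCD2 rows in shNT and 66.8 to 72.9% in shARMC5 libraries. The MANE Select transcript of GENCODE 44, ENST00000675286, has 5096 bases and is not a row of these files. As a transcript, ENST00000383807 had a log2 fold change of -0.28 (SE 0.06, adjusted P = 0.485 from edgeR's test).

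Among the matched rows of FANCD2, ENST00000419585 and ENST00000421731 held more reads in shARMC5 cells. The former held 331, 337 and 338 reads in shARMC5 and 0, 170 and 0 reads in shNT libraries. The latter starts inside the gene, at 10049462, and held 53, 179 and 184 reads in shARMC5 libraries and 0 in every shNT library. ENST00000287647 went the other way, with 221, 184 and 76 reads in shARMC5 and 268, 234 and 249 reads in shNT libraries, and none of these 3 transcripts was called. Summed over all rows, FANCD2 was 78.4 ± 1.92 CPM in shNT and 76.9 ± 2.23 CPM in shARMC5 cells (SD, n = 3). The groups overlapped, with a log2 fold change of -0.03 (95% interval -0.11 to 0.05, adjusted P = 0.761 from edgeR's test).

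Unmatched rows stood within or directly after the rows of 8 members, 24 rows in all. Besides FANCB and FANCD2, only RAD51B had such a row with at least 10 reads in a library. Its row, ENST00000390683, held 15 to 42 reads, and with it RAD51B had a log2 fold change of -0.15 (SE 0.15) in place of -0.10 (SE 0.18).

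BRCA1 is the ubiquitin ligase that with BARD1 promotes end resection and the recruitment of PALB2. It is on the minus strand of chromosome 17, from 43044295 to 43170245 in GENCODE 44. BRCA1 measured 105.7, 101.1 and 97.5 CPM in the shNT libraries and 89.7, 95.1 and 87.1 CPM in the shARMC5 libraries. The highest shARMC5 library was below the lowest shNT library by a small margin. The log2 fold change was -0.16 (SE 0.04, 95% interval -0.25 to -0.07, adjusted P = 0.0306 from edgeR's test), a ratio of 0.894.

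The MANE Select transcript of BRCA1, ENST00000357654, held 78.5% of the BRCA1 reads. On its own it had a log2 fold change of -0.15 (SE 0.08) and was not called. A minor transcript, ENST00000644379 of 2571 bases, held 124, 55 and 56 reads in shARMC5 libraries and 0 in every shNT library. BRCA1 was not called without shNT replicate 1 (adjusted P = 0.165), without shARMC5 replicate 3 (0.104) or with an offset for transcript length in edgeR (0.221, at a log2 fold change of -0.28), all from edgeR's test. DESeq2 with the length offset gave the same log2 fold change of -0.28 and kept the call (adjusted P = 0.0411). Over 32 members (without FANCB, FANCD2 and SLX1A) the log2 difference of a library from the shNT mean had a Pearson r with log length of 0.58, -0.01 and -0.51 in shNT replicates 1, 2 and 3 and of 0.23, -0.43 and -0.24 in shARMC5 replicates 1, 2 and 3. The shNT libraries are set against their own mean, which ties their signs to each other. These are correlations across genes within 1 library, and genes are not independent replicates. The part of transcript length in the BRCA1 difference was not tested beyond the offsets.

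The stretch before the BRCA1 start is shown because BRCA1 was the member called with either count of the rows. It covers the 250 bases before the RefSeq start site on GRCh38.p14, chr17:43125365-43125614 on the minus strand, with a CCAAT box and an E2F-type word in capitals.
BRCA1: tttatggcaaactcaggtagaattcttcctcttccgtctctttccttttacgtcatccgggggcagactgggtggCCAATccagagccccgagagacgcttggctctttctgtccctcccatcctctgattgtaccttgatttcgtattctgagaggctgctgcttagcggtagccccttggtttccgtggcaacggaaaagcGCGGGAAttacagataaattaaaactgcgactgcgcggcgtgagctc
The words searched on both strands for the E2F type were TTCCCGC and its variants with a changed centre, namely TTGGCGC, also TTCGCGC and also TTGCCGC. The CCAAT box was searched by its name and the GC box as GGGCGG. The E2F-type words occurred in 9 of 33 member promoters found in RefSeq (27.3%) and in 11.0% of 27305 promoters, 1 per gene symbol, CCAAT in 42.4% and 33.0%, and GGGCGG in 54.5% and 42.3%. The word TTTGAA of the cell cycle homology region was in 12.1% of the member promoters and 13.6% of all. The window of RAD51B, counted among the 33, lay 3762 bases from its MANE Select start and held none of these words. Median GC content was 62.8% in the member promoters and 58.0% in all. The 27305 promoters were not limited to the 13737 genes tested here, nor matched for GC content. The shares are therefore not read as a trait of the members. The E2F-type promoters were those of FANCA, FANCC, FANCG, FANCL, BRCA1, RAD54L, SLX1A, EME1 and BLM, of which BRCA1 alone was called. A match of letters is a description of the window, and no binding was measured in these files.

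**Figure D3:**
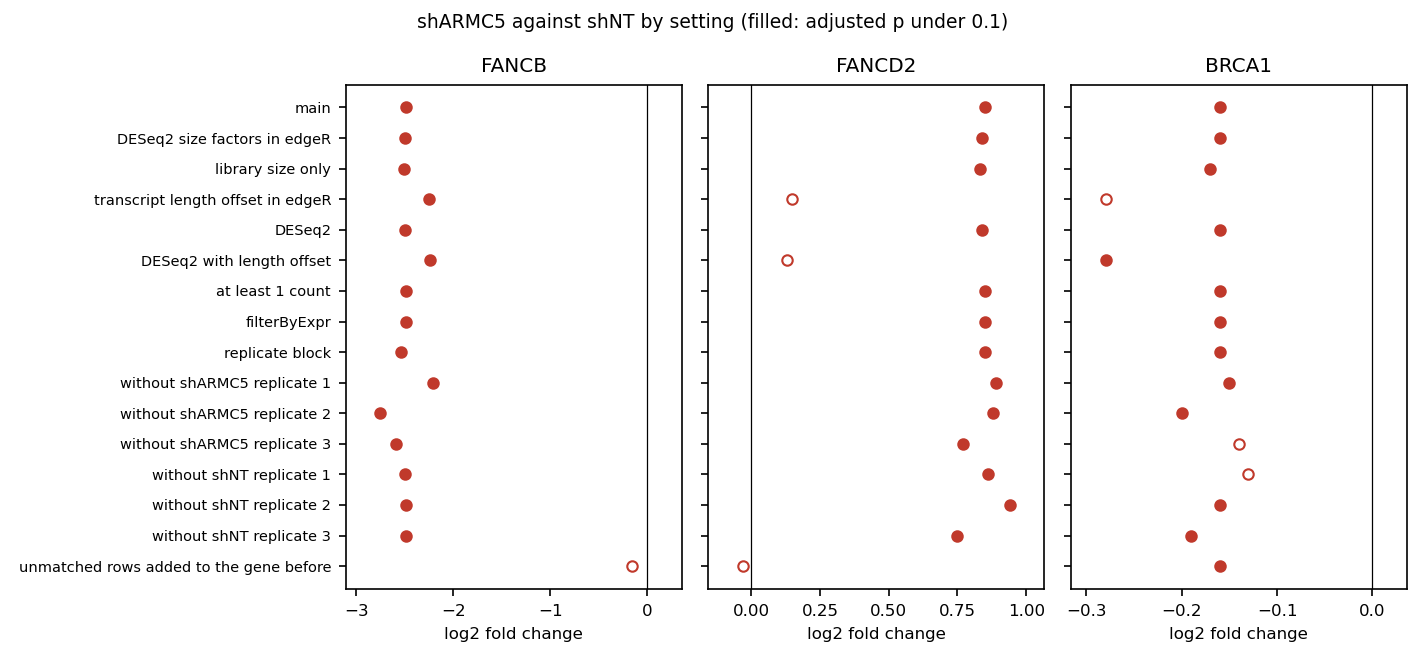
log2 fold change of FANCB, FANCD2 and BRCA1 under the reported fit (top) and 15 alternatives, filled where the adjusted P is under 0.1. FANCB and FANCD2 move to -0.16 and -0.03 when unmatched rows are added, and BRCA1 stays between -0.28 and -0.13.

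In the core complex, 8 of the 9 members were not called, with log2 fold changes from -0.16 to 0.09. FANCA, a large subunit of the complex, measured 50.6, 46.2 and 51.4 CPM in shARMC5 and 53.0, 52.3 and 52.6 CPM in shNT cells. FANCF, an adaptor within the complex, measured 12.5, 12.7 and 11.3 CPM in shARMC5 and 13.5, 13.5 and 13.8 CPM in shNT cells. FANCM, the translocase that anchors the complex to DNA, measured 34.5, 35.1 and 34.5 CPM in shARMC5 and 33.0, 33.7 and 31.3 CPM in shNT cells. These 3 members had groups that did not overlap, yet their adjusted P values from edgeR's test were 0.311, 0.306 and 0.426. Over all tested genes, 23.4% had groups that did not overlap.

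The enzymes of the ubiquitination step were near equal in the groups. FANCL had 37.4 ± 2.23 CPM in shARMC5 and 36.5 ± 0.795 CPM in shNT cells (SD, n = 3). UBE2T had 49.5 ± 2.34 and 48.6 ± 1.48 CPM. For these the 95% intervals of the log2 fold change were -0.08 to 0.16 and -0.07 to 0.13. FANCC, FANCE and FANCG, further subunits of the complex, had log2 fold changes of -0.02, 0.01 and -0.02. FANCI, the substrate beside FANCD2, was among the most precisely measured, at 218.8 ± 5.11 CPM in shARMC5 and 217.6 ± 2.76 CPM in shNT cells, with an interval of -0.05 to 0.07.

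In the BRCA group, BRCA1 was the 1 called member of 5. BRCA2, which acts on resected single-stranded DNA, measured 61.6, 56.8 and 48.1 CPM in shARMC5 and 68.6, 57.2 and 61.3 CPM in shNT cells. Its groups overlapped, with shARMC5 replicate 3 the lowest library, and the interval of its log2 fold change ran from -0.47 to 0.14. PALB2, the bridge between BRCA1 and BRCA2, measured 31.0, 32.2 and 30.8 CPM in shARMC5 and 32.8, 32.7 and 34.0 CPM in shNT cells. Its groups did not overlap, at a log2 fold change of -0.08 (adjusted P = 0.468 from edgeR's test). BARD1, the partner of BRCA1, and the helicase BRIP1 had log2 fold changes of -0.07 and 0.01, with overlapping groups.

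None of the 6 genes RAD51B, RAD51C, RAD51D, XRCC2, XRCC3 and RAD54L was called by edgeR or DESeq2, and 1 of them, RAD54L, had an unadjusted P under 0.05. RAD54L, a DNA translocase of strand invasion, measured 74.6, 76.5 and 77.5 CPM in shARMC5 and 80.6, 77.8 and 83.2 CPM in shNT cells. These groups did not overlap, at a log2 fold change of -0.08 (SE 0.04, adjusted P = 0.276 from edgeR's test). RAD51C, a member of both paralog complexes, had a log2 fold change of 0.08 (SE 0.06). RAD51B was the least covered paralog, with 98 to 215 reads, and its interval ran from -0.49 to 0.29. XRCC2, XRCC3 and RAD51D lay between -0.04 and 0.04.

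None of the 4 end resection genes was called by edgeR or DESeq2, and MRE11 was the 1 gene with an unadjusted P under 0.05. MRE11, the nuclease of the MRN complex, measured 38.9, 39.0 and 37.5 CPM in shARMC5 and 41.4, 40.6 and 42.6 CPM in shNT cells. Its groups did not overlap, at a log2 fold change of -0.11 (SE 0.05, adjusted P = 0.25 from edgeR's test). The sign for MRE11 turned in 2 of the 15 alternatives (highest 0.03), and its mean TPM was 18.5 in shARMC5 and 18.4 in shNT cells. RAD50, the ATPase of that complex, had a log2 fold change of -0.06 (SE 0.03), NBN -0.01 (SE 0.04) and RBBP8, which encodes the resection factor CtIP, -0.04 (SE 0.04). RAD50 shares 91.0% of the bases of its MANE Select transcript with another gene model on the same strand, ENSG00000283782, so that reads of the 2 gene models may be divided either way.

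None of the 9 genes of the group of nucleases and BLM was called by edgeR or DESeq2, and 0 had an unadjusted P under 0.05. In this group no member had groups apart from each other. SLX4 measured 25.2 ± 0.552 CPM in shARMC5 and 26.3 ± 1.54 CPM in shNT cells, and BLM, the helicase that dissolves double Holliday junctions, 44.8 ± 0.703 and 47.0 ± 2.12 CPM (SD, n = 3). MUS81 and its partner EME1 had log2 fold changes of 0.03 and -0.01, ERCC4 and its partner ERCC1 -0.02 and 0.02. The nuclease FAN1 and the Holliday junction resolvase GEN1 had 0.01 and -0.01.

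SLX1A, the nuclease subunit that binds SLX4, had the widest interval, -0.81 to 0.80. It measured 11.4, 22.8 and 20.8 CPM in the shNT libraries and 18.1, 19.4 and 17.1 CPM in the shARMC5 libraries. The outlying library was shNT replicate 1. The near-identical copy SLX1B, on the same chromosome, measured 26.4, 14.0 and 19.2 CPM in shNT and 19.8, 13.8 and 15.5 CPM in shARMC5 libraries, and was highest in that same library. Summed, the copies measured 37.8, 36.8 and 40.0 CPM in shNT and 37.8, 33.2 and 32.6 CPM in shARMC5 cells, and the coefficient of variation in shNT fell from 33.3% for SLX1A to 4.33% for the sum. In shARMC5 cells it did not fall, with 18.2 ± 1.18 CPM for SLX1A and 34.6 ± 2.86 CPM for the sum (SD, n = 3). The sum overlapped between groups, and a two-sided exact permutation test gave P = 0.3, where 0.1 is the smallest possible.

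The SLX1 copies are shown side by side because they hold transcripts of the same sequence. In GENCODE 44 the MANE Select transcript of SLX1A, of 1133 bases, is identical in sequence to 1 of the 5 SLX1B transcripts, ENST00000330181. The deposited row of that SLX1A transcript is 1091 bases long, and the other SLX1A rows were not compared with SLX1B. The 90 bases below are coding sequence of exon 3 of 6, on GRCh38 at chr16:30194886-30194975 for SLX1A and chr16:29455544-29455633 for SLX1B, both on the plus strand, and the lines hold the same letters.
SLX1A: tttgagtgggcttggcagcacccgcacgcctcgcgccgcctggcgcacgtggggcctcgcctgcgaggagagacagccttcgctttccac
SLX1B: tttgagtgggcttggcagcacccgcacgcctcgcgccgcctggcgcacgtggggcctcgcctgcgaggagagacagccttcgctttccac

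**Figure D4:**
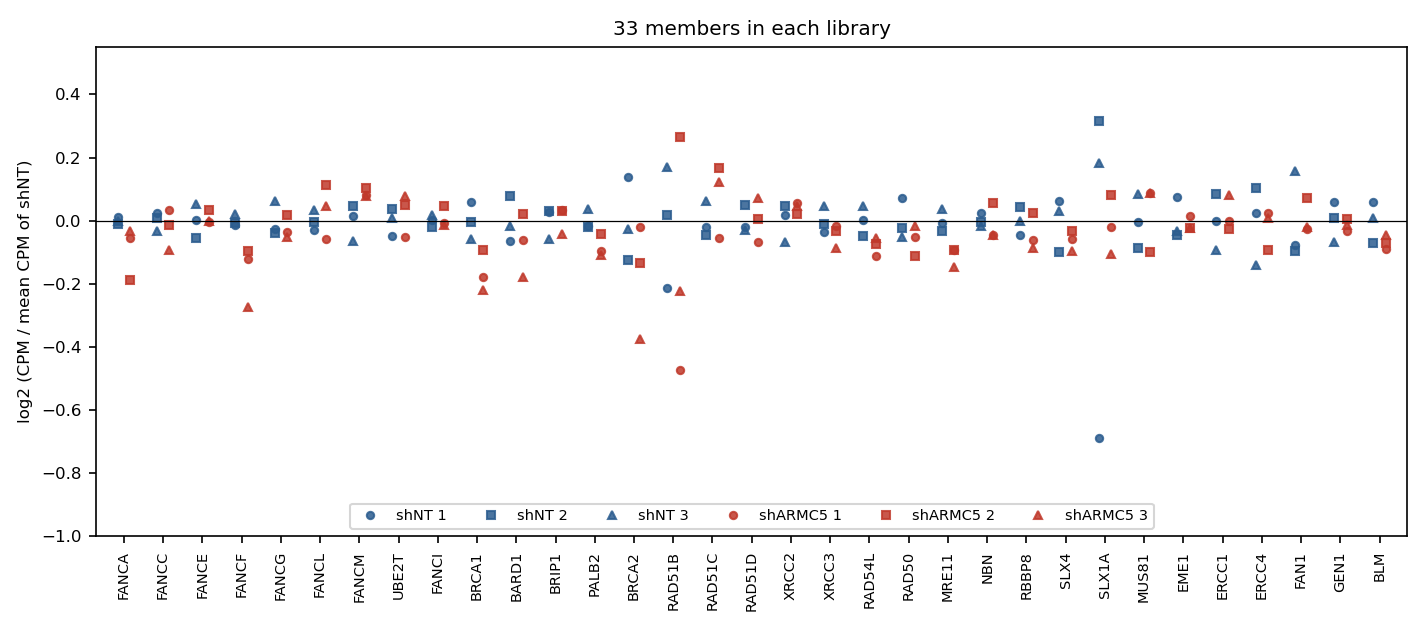
Level of 33 members in each library as the log2 ratio of its CPM to the mean CPM of the shNT libraries (blue shNT, red shARMC5, one marker shape per replicate). BRCA1 lies below the shNT libraries in all 3 shARMC5 libraries, and SLX1A in shNT replicate 1 and RAD51B in shARMC5 replicate 1 stand farthest from 0.

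Across all 35 members, 9 (25.7%) had groups that did not overlap, where 23.4% of all tested genes did. The 2 higher in shARMC5 were FANCM and FANCD2. The 7 lower were FANCA, FANCB, FANCF, BRCA1, PALB2, RAD54L and MRE11. These are counts over matched rows, and the groups of FANCB and FANCD2 overlapped once their unmatched rows were added. The share of members was near that of all genes, so it is not a result about the members. The median coefficient of variation within a group over the members was 3.95%.

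Levels between genes are compared in TPM, which accounts for transcript length. RAD51C was highest at 125.8 ± 7.46 TPM (SD over 6 libraries), followed by FANCI at 104.9 ± 5.72 and UBE2T at 97.8 ± 2.71. SLX4 was at 5.19 ± 0.428 TPM. FANCB (4.56 ± 3.32) was below it only through its matched rows in the shARMC5 libraries, and its mean in shNT cells, 7.54 TPM, was above those of FANCF (7.36), ERCC4 (6.93) and SLX4 (5.37). In the order of levels, 28 of the 34 neighbouring pairs had overlapping ranges over the libraries, and FANCI and UBE2T were such a pair. RAD51C stood apart from FANCI, and RAD50 (83.5 TPM) and RBBP8 (63.0 TPM) stood apart from both their neighbours. FANCD2 moved from 11.5 TPM to 28.5 TPM with its unmatched rows added, and FANCB from 4.56 to 7.16 TPM.

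**Figure D5:**
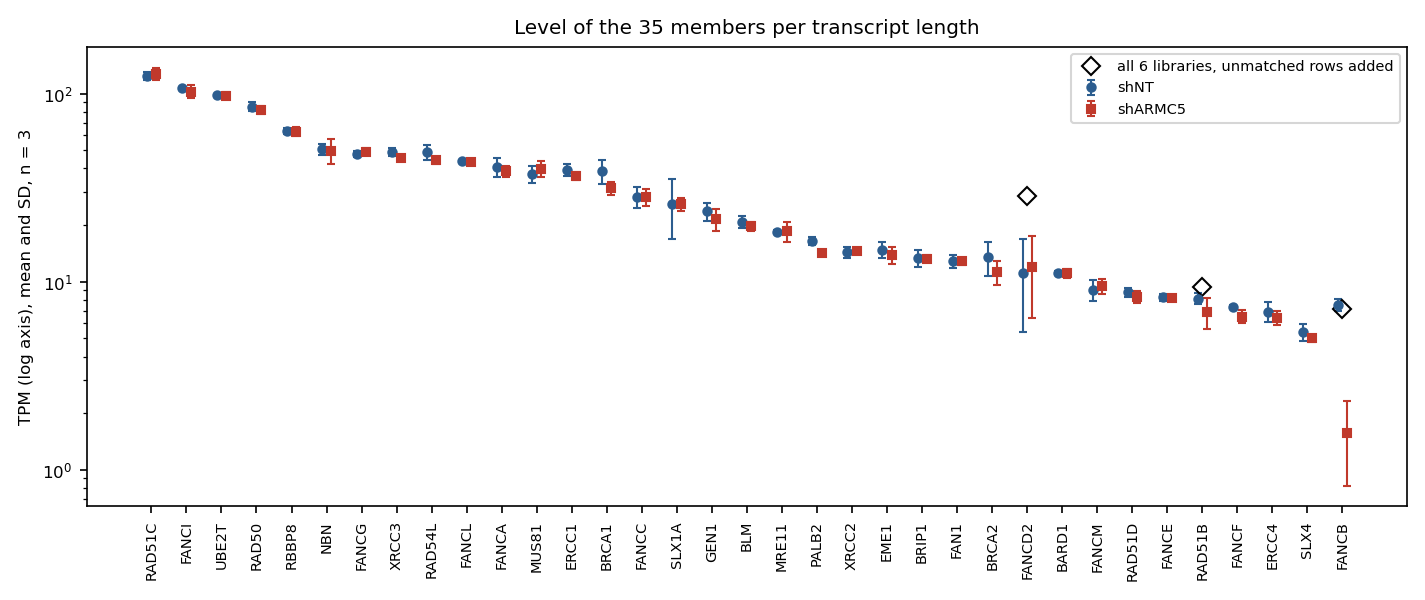
TPM of the 35 members on a log axis, as mean and SD of the 3 libraries of each group, in order of the mean over all 6. RAD51C is highest at 125.8 TPM, and the open diamonds show FANCD2, RAD51B and FANCB over all 6 libraries with unmatched rows added.

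The level of a gene is not always that of its main transcript. The MANE Select transcript held the most reads of its gene for 28 members and over 75% for 17, over all 6 libraries together. FANCB is among the 28 through its shNT libraries, since its MANE Select transcript was at 0 in every shARMC5 library. The 7 exceptions were FANCM, FANCD2, RAD51C, RAD50, SLX1A, ERCC1 and FAN1. For RAD50, ENST00000533482, annotated as subject to nonsense-mediated decay, held 68.3% of the reads and the MANE Select transcript 19.7%. For RAD51C, ENST00000482007, of the same class, held 34.2% and the MANE Select transcript 5.43%. Salmon divides reads shared by transcripts, and these shares are its estimates.

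Exons of another gene overlap the MANE Select transcript of 22 members, and for 10 members 1 other gene covers over 10% of it. The methods name a library kit and do not state whether counting used strand, so reads of overlapping genes cannot be told apart here. ERCC1 shares 47.1% of these bases with POLR1G on the opposite strand, which was called higher (log2 fold change 0.15, adjusted P = 0.0906 from edgeR's test). XRCC3 shares 34.2% with KLC1, FAN1 31.1% with MTMR10 and FANCA 27.4% with ZNF276, none of which was called. SLX1A shares 87.5% with SLX1A-SULT1A3 on the same strand, so that its reads may also be divided with that gene model. It shares 35.1% with BOLA2B on the opposite strand, which was not called.

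Of the 16 other Fanconi pathway genes, 0 were called by edgeR and by DESeq2, and FAAP20 had an unadjusted P under 0.05. With unmatched rows added, REV3L, the catalytic subunit of translesion polymerase zeta, was called (log2 fold change -0.15, adjusted P = 0.0623 from edgeR's test). Its matched rows measured 31.2, 31.4 and 11.2 CPM in shARMC5 cells, with replicate 3 the lowest, and 34.0 ± 6.90 CPM (SD, n = 3) in shNT cells, and these groups overlapped. Of the 30 measured genes among 31 other homologous recombination genes, 0 were called by edgeR, 2 (EXO1 and MCM9) had an unadjusted P under 0.05, and 1 (ATM) was called by DESeq2.

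Among 18 end joining genes, 1 (NHEJ1) was called higher and 1 (RIF1) lower, where 4.44% and 3.3% of all tested genes were. DESeq2 called 3, these and XRCC6. In edgeR's test 5 of the 18 had an unadjusted P under 0.05. The share of all tested genes under that P was not counted. Counts of unadjusted P values, here and for the other lists, are therefore not results about the lists. NHEJ1, which encodes the ligation factor XLF, measured 18.2, 18.6 and 18.1 CPM in shARMC5 and 15.9, 13.2 and 15.7 CPM in shNT cells, without overlap (log2 fold change 0.29, SE 0.08, adjusted P = 0.0396 from edgeR's test). RIF1, which restrains resection together with 53BP1, measured 174.3, 181.8 and 168.8 CPM in shARMC5 and 203.2, 186.3 and 186.1 CPM in shNT cells (log2 fold change -0.13, SE 0.04, adjusted P = 0.0697 from edgeR's test). NHEJ1 was not called without shARMC5 replicate 2 (adjusted P = 0.142) or shNT replicate 2 (0.125), and RIF1 not without shARMC5 replicate 1 (0.175) or 3 (0.187) or shNT replicate 1 (0.251), in edgeR's test. With a length offset in edgeR or DESeq2 the log2 fold changes were 0.31 for NHEJ1 and -0.13 for RIF1, of like size, but neither was called, and RIF1 not with library size only (0.102). The medians of these lists were 0.008 for the other Fanconi genes, 0.005 for other homologous recombination genes and 0.01 for end joining genes.

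Many members are expressed mainly in cycling cells, and 22 proliferation genes were therefore read beside them. TK1 and RRM2, enzymes of nucleotide supply, rose by 0.12 (SE 0.03) and 0.11 (SE 0.03) on the log2 scale, with adjusted P values of 0.0267 and 0.0306 from edgeR's test. TOP2A, the topoisomerase of dividing cells, measured 645.8 ± 15.0 CPM in shARMC5 and 689.1 ± 17.0 CPM in shNT cells and fell by 0.09 (SE 0.03, adjusted P = 0.0672 from edgeR's test). With a length offset in edgeR or DESeq2 the log2 fold changes were of like size, 0.11 for TK1, 0.09 for RRM2 and -0.09 for TOP2A, but none of these 3 was called. In edgeR's test TK1 was not called without shNT replicate 1 (adjusted P = 0.115) or 3 (0.129), RRM2 not without shARMC5 replicate 2 (0.162) or shNT replicate 1 (0.114) or 3 (0.104), and TOP2A not without any one library but shNT replicate 3 (0.110 to 0.222). Of the 22 genes, 2 were called higher and 1 lower, where 4.44% and 3.3% of all tested genes were. In edgeR's test 7 of the 22 had an unadjusted P under 0.05, a count with no share of all genes beside it. The median log2 fold change over the 22 was 0.023. Whether these shifts bear on BRCA1 was not tested.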

How the data were processed

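RNA-seq libraries from SPT5-AID cells, 3 with shARMC5 and 3 with shNT, were analysed. The authors used cutadapt 4.2 for trimming and Salmon 1.9.0, corrected for GC content, for quantification. The deposited files hold an estimated count of reads and TPM per transcript, with lengths. Genome build and transcript set were not given in the sources used here. Of 177456 transcripts, 165533 were matched without version to GENCODE 44, and the 11923 unmatched held 2.96 to 3.04% of reads.

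The estimated counts of a gene's matched transcripts were added and rounded. The filter asked for 10 counts or more in 3 or more libraries. Tests used edgeR 4.0.16 (R 4.3.3) by the robust quasi-likelihood F test with TMM factors, a design with condition alone, Benjamini-Hochberg adjustment over all genes and a threshold of 0.1. The script was tested on simulated data. The depth of 26201112 to 40866478 reads per library bounds the precision of members with few reads. Exact permutation tests were two-sided (scipy 1.17.1). DESeq2 1.42.0 and the other alternatives are in the closing section. Promoters came from RefSeq (GRCh38.p14), with 33 of 35 members shown or counted. Tables and plots used Python 3.11.15, numpy 2.4.6, pandas 2.3.3 and matplotlib.

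Members and lists were chosen with earlier results of these data known. Named are ARMC5, all members, called genes of the other lists (at most 6 each), the transcript with the most reads of a member, called transcripts, and FANCB transcripts with at least 10 reads. FAAP20, EXO1, MCM9, ATM, XRCC6, REV3L, the BRCA1 and FANCD2 minor transcripts and the overlapping genes were named after their values were seen.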

Additional observations from a re-analysis of the deposited data

How the results depend on the processing

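With the unmatched rows added to the gene before, members called went from 3 to 1, the log2 fold change of FANCB went to -0.16 and that of FANCD2 to -0.03, neither called; those rows, assigned by place in the files alone, hold the larger part of the reads of FANCD2 and, in shARMC5 libraries, of FANCB. The length offsets took FANCD2 to 0.15 in edgeR and 0.13 in DESeq2, not called. An offset for transcript length in edgeR gave 234 genes in place of 1064, 1 member and 0 genes of the 4 other pathway lists in place of 5. DESeq2 with that offset gave 568 genes and 2 pathway genes, neither of them among those 5. At least 1 count gave 9 pathway genes, and an adjusted p under 0.05 gave 676 genes, 3 pathway genes and 0 member transcripts. The replicate block gave 1766 genes, 12 pathway genes and 0 member transcripts. Deviations of same-numbered libraries from their group means had correlations of 0, 0.015 and 0.032 over all tested genes. Counting noise enters these values, so they cannot exclude a pairing, and the labels do not state one. The cause of these differences was not tested. Leaving out 1 library gave 536 to 1085 genes, 1 to 4 pathway genes, 0 member transcripts in place of 1, and a FANCB log2 fold change of -2.75 to -2.21. BRCA1 kept its direction in all 15 alternatives and its call in 12. FANCB kept its call in 14 and FANCD2 in 12. Of the 32 uncalled members, 0 were called in any of the 15, the lowest adjusted p being 0.1005 (RAD51C without shARMC5 replicate 1), and 20 had the other sign in at least 1. The sum of SLX1A and SLX1B was added after seeing the data.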
